A study of Homo sapiens with 6 samples.

Results

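The circadian clock genes examined here were PER1, PER2, PER3, CRY1, CRY2, CLOCK, ARNTL, NR1D1, NR1D2 and DBP, taken by symbol from an RNA-seq gene table of MIA PaCa-2 cells. These 10 genes were 10 of the 35993 genes in the table, and all 10 passed the filter on low counts that left 14728 genes for testing. MIA PaCa-2 is an established human pancreatic carcinoma cell line, and the cells were cultured in DMEM with 10% FBS and 2.5% horse serum and moved to DMEM with 1% FBS on the day before treatment. The 3 untreated libraries received no rhCYGB, and the 3 rhCYGB libraries came from cells given 4 µM rhCYGB for 48 h, a His-tagged recombinant human cytoglobin made in bacteria. Both groups therefore shared the line and the low-serum medium. The labels describe no vehicle or other added protein for the untreated wells and no hour of collection, so effects of cytoglobin, of any protein added and of the hour of collection cannot be told apart, and a single time point holds no information on rhythm.

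The circadian clock of mammalian cells is a transcriptional feedback loop that runs in most tissues, and cultured cell lines keep parts of it. CLOCK and ARNTL (also called BMAL1) form a heterodimer that binds E-box sequences and activates the PER and CRY genes, whose proteins return to the nucleus and repress the heterodimer. The heterodimer also activates NR1D1 and NR1D2, which encode the nuclear receptors REV-ERB alpha and beta that repress ARNTL, and DBP, which encodes a transcription factor that acts on D-box sequences in output genes and in other clock genes.

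After rhCYGB, 9 of the 10 clock genes rose and none fell. The largest changes were in PER1 (9.78-fold higher), NR1D1 (7.08-fold), NR1D2 (7.04-fold) and DBP (4.07-fold), while PER2, CRY2 and CRY1 rose by 2.36-fold, 2.30-fold and 2.13-fold. PER3 and ARNTL rose by less than 2-fold, and CLOCK did not pass the test. These calls rest on an adjusted p under 0.05 in edgeR's quasi-likelihood test. The response to rhCYGB was wide in this line: 77.6% of all genes tested passed the same threshold, 39.0% of them higher and 38.6% lower as shares of all genes. A rise of 2-fold or more was called for 7 of the 10 clock genes and for 12.4% of all genes. The median log2 fold change was 1.22 over the 10 clock genes, with a range of 0.01 to 3.29, and -0.005 over all genes tested.

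The libraries held 34838399 to 42271299 counts each, so that 3 counts corresponded to 0.0669 to 0.0902 CPM (counts relative to the TMM-scaled library size), far below the level of every clock gene. The counts covered keratin genes KRT8, KRT18 and KRT19 and the mesenchymal gene VIM at high levels in every library. The keratin gene KRT7 was low, at 21 to 38 counts, and the epithelial genes EPCAM and CDH1 were at 0 to 2 counts. Markers of acinar cells (PRSS1, CPA1, CELA3A) and the leukocyte and endothelial genes PTPRC, CD3E and PECAM1 were at 0 in all 6 libraries, 6 genes in all. KRT8 went from 78515-96291 to 39463-45811 counts and KRT19 from 9494-11844 to 5886-6568 counts. Other markers of these cell types were not at 0. The endothelial gene CDH5 went from 4438-5428 to 390-465 counts and the leukocyte gene CD68 from 1335-1702 to 2410-2652 counts. The fibroblast and stellate cell genes COL3A1 and COL1A1 went from 146-190 to 2-9 counts and from 6-10 to 0 counts. ACTA2, of the same list, stayed closer, at 210-243 counts before and 180-196 after rhCYGB. PDGFRB was at 0-5 counts before and 0-4 after. The part of these keratin and other marker shifts in the results below was not tested. The labels name separate samples but not separate cultures, so the p-values measure the spread between these libraries, which may be technical.

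The sequences before the transcription starts of the clock genes are shown first, because the loop is defined by the short motifs through which these genes act on each other. RefSeq promoter windows of 300 bases (250 before and 50 after a start, build GRCh38.p14) were found for all 10 genes, 15 windows in all. The motifs, 4 in all, were searched on both strands: the E-box CACGTG, the weaker E-box variant CACGTT, the D-box as TTATGTAA, TTACGTAA or TTATGCAA, and the nuclear receptor core motif AGGTCA. None of the matches overlapped another. The 250 bases before the start are printed 5′ to 3′ for 4 genes that rose by 2-fold or more and carry E-box-like or D-box matches. Each match that lies wholly before the start is in capitals. The PER2 D-box, which spans the start, is in capitals only in the shorter stretch further below. The second NR1D2 window is the one shown, since the first held no match.
PER1, chr17:8152405-8152654, minus strand: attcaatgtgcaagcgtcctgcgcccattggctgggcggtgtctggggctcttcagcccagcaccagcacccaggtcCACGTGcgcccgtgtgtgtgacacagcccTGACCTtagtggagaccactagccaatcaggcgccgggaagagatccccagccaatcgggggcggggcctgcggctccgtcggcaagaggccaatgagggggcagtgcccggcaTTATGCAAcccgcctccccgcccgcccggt
PER2, chr2:238288611-238288860, minus strand: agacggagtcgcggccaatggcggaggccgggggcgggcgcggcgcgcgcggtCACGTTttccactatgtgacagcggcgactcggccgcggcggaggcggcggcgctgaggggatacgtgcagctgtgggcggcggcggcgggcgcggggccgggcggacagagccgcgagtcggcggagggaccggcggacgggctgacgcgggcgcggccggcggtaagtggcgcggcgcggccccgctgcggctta
NR1D1, chr17:40100590-40100839, minus strand: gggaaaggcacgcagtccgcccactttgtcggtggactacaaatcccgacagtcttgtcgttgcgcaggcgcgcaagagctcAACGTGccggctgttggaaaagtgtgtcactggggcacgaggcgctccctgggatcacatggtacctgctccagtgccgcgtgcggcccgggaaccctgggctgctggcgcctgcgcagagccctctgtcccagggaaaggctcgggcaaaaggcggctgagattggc
NR1D2, chr3:23945871-23946120, plus strand: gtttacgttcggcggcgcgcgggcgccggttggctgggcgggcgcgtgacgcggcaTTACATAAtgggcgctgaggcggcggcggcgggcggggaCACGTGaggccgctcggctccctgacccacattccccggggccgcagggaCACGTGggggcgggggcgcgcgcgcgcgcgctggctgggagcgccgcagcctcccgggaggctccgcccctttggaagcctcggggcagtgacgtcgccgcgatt

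The E-box CACGTG was found at position -173 of the PER1 window, counted from the start as position 0, and at positions -155 and -105 of the NR1D2 window. These were 2 of the 15 windows, and 7.26% of 35116 RefSeq windows of this length held the motif. The variant CACGTT was in 1 window each of PER2, CRY1, CRY2, CLOCK and NR1D1, and in 5.34% of all windows. A D-box match was in 1 window each of PER1, PER2, PER3 and NR1D2, and in 1.84% of all windows. The receptor motif AGGTCA was in 4 windows of 3 genes (PER1, CRY2 and ARNTL), and in 13.8% of all windows. The DBP window held none of the 4 motifs, which says only that these letters are not in this window.

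Shorter stretches of 30 bases show the remaining matches that bear on the contrasts described below, again with the match in capitals. The PER2 D-box spans the start itself, the CRY1 and CRY2 sites are the E-box variant in paralogues that rose by 2.13-fold and 2.30-fold, the CLOCK site is the same variant in the gene that did not pass the test, and the ARNTL nuclear receptor site lies at position 31, after the start.
PER2, chr2:238288595-238288624, minus strand: cccgctgcggcTTACGTAAccgccgccggc
CRY1, chr12:107093621-107093650, minus strand: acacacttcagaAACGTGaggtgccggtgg
CRY2, chr11:45847275-45847304, plus strand: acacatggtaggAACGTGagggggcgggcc
CLOCK, chr4:55546102-55546131, minus strand: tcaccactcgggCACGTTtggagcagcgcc
ARNTL, chr11:13277809-13277838, plus strand: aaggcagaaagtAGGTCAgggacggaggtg

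A match is a description of letters and not of a bound site, since no binding was measured. CLOCK, with an E-box variant in 1 window, did not pass the test, and DBP, with none of the motifs in its window, rose by 4.07-fold. Sequence outside the 300-base windows was not searched, and a link between matches and changes in RNA was not tested.

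The activator genes of the loop changed least. CLOCK (Entrez Gene 9575, chr4:56294068-56413076 in the deposited transcript table, whose build is not named and is not that of the promoter windows), which encodes the histone acetyltransferase partner of the heterodimer, had 32.6, 31.7 and 32.1 CPM in the untreated libraries and 31.1, 29.7 and 36.0 CPM after rhCYGB. The groups overlapped, with rhCYGB library 3 above and libraries 1 and 2 below every untreated library. The log2 fold change was 0.01 (SE 0.0666, 95% interval -0.14 to 0.15, adjusted p = 0.925, edgeR), so that a change of more than about 0.15 in either direction on the log2 scale lay outside the interval. Scaled by total counts in place of TMM factors, CLOCK was lower by -0.16 with an adjusted p of 0.042 (edgeR), so that its direction depends on the scaling. The median of all genes tested was -0.169 under that scaling, so CLOCK lay near it.

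ARNTL (Entrez Gene 406, chr11:13298199-13408813 in the deposited table), the other partner of the heterodimer, had 17.2, 16.0 and 16.3 CPM in untreated cells and 19.9, 21.6 and 21.9 CPM after rhCYGB. All 3 rhCYGB libraries were above all 3 untreated ones, and the log2 fold change of 0.36 (SE 0.0672, adjusted p = 0.000172, edgeR) was the smallest of the 9 rises. It stayed between 0.17 and 0.40 under 16 alternative settings. ARNTL thus rose, although less than 2-fold, in the same libraries in which the genes of its repressors NR1D1 and NR1D2 rose about 7-fold (7.08 and 7.04).

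The Period genes encode the proteins that, with the cryptochromes, repress the heterodimer, and PER1, PER2 and PER3 rose by 9.78-fold, 2.36-fold and 1.52-fold. PER1 (Entrez Gene 5187, 1 transcript spanning chr17:8043790-8055722 in the deposited table) had 15.1, 15.9 and 14.1 CPM in untreated cells and 149, 138 and 155 CPM after rhCYGB. Its means were 15.0 ± 0.918 and 147 ± 8.94 CPM (SD, n = 3), a gap far larger than the spread in either group. The log2 fold change was 3.29 (SE 0.0598, adjusted p = 9.86e-16, edgeR), the 116th largest rise among the 14728 genes. PER1 was thus the clock gene with the largest rise, and 0.781% of the genes tested rose more.

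PER2 (Entrez Gene 8864, 1 transcript spanning chr2:239152685-239197251 in the deposited table) had 8.75, 9.08 and 8.31 CPM in untreated cells and 19.2, 18.9 and 23.4 CPM after rhCYGB. All rhCYGB libraries were above the untreated ones, with library 3 the highest. The log2 fold change was 1.24 (SE 0.0935, adjusted p = 8.17e-09, edgeR). PER3 (Entrez Gene 8863, chr1:7844247-7905241 in the deposited table) had 34.1, 31.9 and 32.2 CPM before and 51.3, 47.2 and 50.3 CPM after rhCYGB. Its groups were also apart, but its log2 fold change of 0.60 (SE 0.0525, adjusted p = 4.68e-08, edgeR) was below 2-fold.

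The cryptochromes, the partners of the Period proteins in repression, rose by 2.13-fold (CRY1) and 2.30-fold (CRY2). CRY1 (Entrez Gene 1407, chr12:107385142-107487327 in the deposited table) had 27.8, 25.3 and 25.4 CPM in untreated cells and 56.6, 53.1 and 57.3 CPM after rhCYGB. Its log2 fold change was 1.09 (SE 0.0555, adjusted p = 7.15e-11, edgeR), with a 95% interval of 0.97 to 1.21 that includes a 2-fold change. CRY2 (Entrez Gene 1408, chr11:45868669-45904799 in the deposited table), a low gene in this line, had 8.08, 10.6 and 9.59 CPM before and 21.2, 21.4 and 22.5 CPM after rhCYGB. The untreated CRY2 libraries varied more than the treated ones (SD 1.26 against 0.714 CPM), and the log2 fold change was 1.20 (SE 0.0913, adjusted p = 8.79e-09, edgeR).

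NR1D1 and NR1D2, the REV-ERB genes, rose together. NR1D1 (Entrez Gene 9572, chr17:38249046-38256842 in the deposited table) had 14.9, 12.5 and 13.4 CPM in untreated cells and 93.9, 91.9 and 102 CPM after rhCYGB. NR1D2 (Entrez Gene 9975, chr3:23986777-24022109 in the deposited table) had 24.2, 22.6 and 24.8 CPM before and 174, 162 and 167 CPM after. Every treated library of both genes was above every untreated one. The log2 fold change was 2.82 for each, with SE 0.0657 and adjusted p = 1.23e-14 for NR1D1 and SE 0.0491 and adjusted p = 7.04e-16 for NR1D2 (edgeR), the 187th and 189th largest rises of all genes.

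DBP (Entrez Gene 1628, 1 transcript spanning chr19:49133287-49140636 in the deposited table), the D-box activator and a common readout of heterodimer activity, had 28.7, 27.5 and 27.5 CPM in untreated cells. After rhCYGB it had 123, 104 and 114 CPM, above all untreated libraries, with a mean of 114 ± 9.67 against 27.9 ± 0.700 CPM (SD, n = 3). The log2 fold change was 2.03 (SE 0.0598, adjusted p = 1.49e-13, edgeR), and 3.04% of the genes tested rose more. In all, the 3 rhCYGB libraries lay above the 3 untreated ones without overlap for 9 of the 10 clock genes, against 39.8% of all genes tested.

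**Figure D1:**
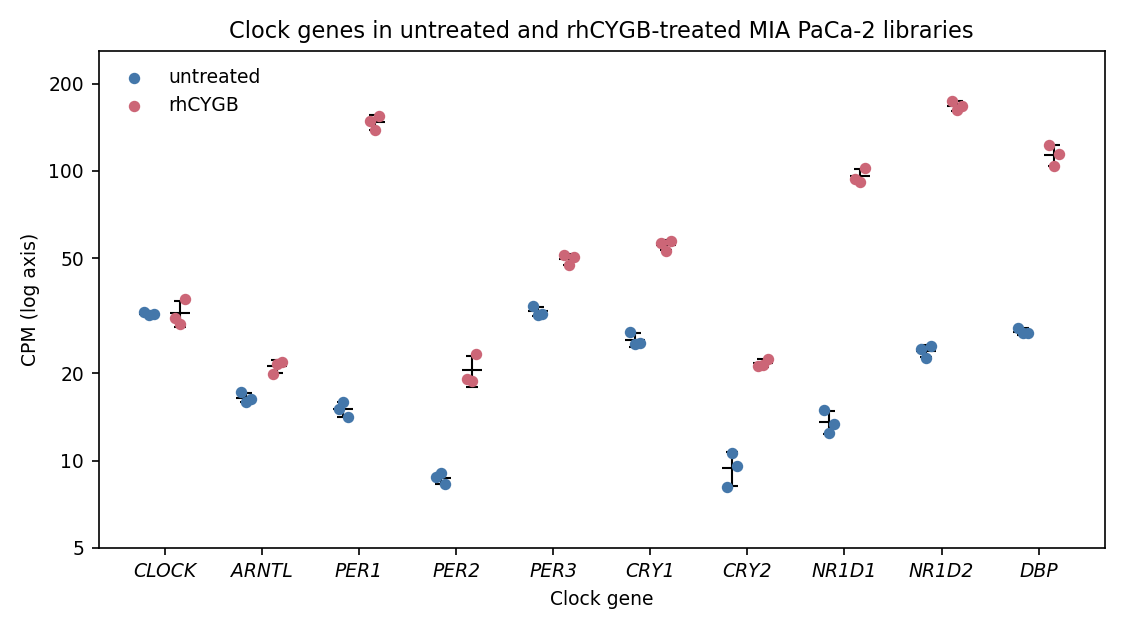
CPM of each clock gene (log axis) in the 3 untreated libraries (blue) and the 3 rhCYGB libraries (red), with bars for the mean ± SD of each group. The groups are apart for 9 genes and overlap for CLOCK, and PER1, NR1D1, NR1D2 and DBP lie at 91.9 to 174 CPM after rhCYGB.

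Levels of different genes were compared per length, as the FPKM values deposited by the authors, which relate fragments to gene length and sequencing depth. In untreated cells DBP was the highest of the 10 genes at 12.0 ± 0.245 FPKM (SD, n = 3) and PER2 the lowest at 1.27 ± 0.0496. The order between them was CRY1 (8.17), ARNTL (5.33), NR1D1 (4.82), PER3 (4.80), NR1D2 (4.25), PER1 (3.00), CLOCK (2.86) and CRY2 (2.12). Ranges of neighbours overlapped for ARNTL and NR1D1, for NR1D1 and PER3, and for PER1 and CLOCK, and the remaining neighbours were apart. The untreated levels were thus moderate, between the 24.8th percentile of the tested genes for PER2 and the 68.9th for DBP.

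After rhCYGB, DBP was still the highest at 43.6 ± 4.37 FPKM, followed by NR1D1 (30.4), NR1D2 (26.7) and PER1 (26.2). PER1 moved from rank 7 to rank 4 among the 10 genes and from the 37.5th to the 84.4th percentile of the tested genes. CRY1 (15.5), PER3 (6.48), ARNTL (6.13), CRY2 (4.37), PER2 (2.68) and CLOCK (2.55) followed, and CLOCK moved from rank 8 to rank 10. The ranges of NR1D2 and PER1, of PER3 and ARNTL, and of PER2 and CLOCK overlapped.

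**Figure D2:**
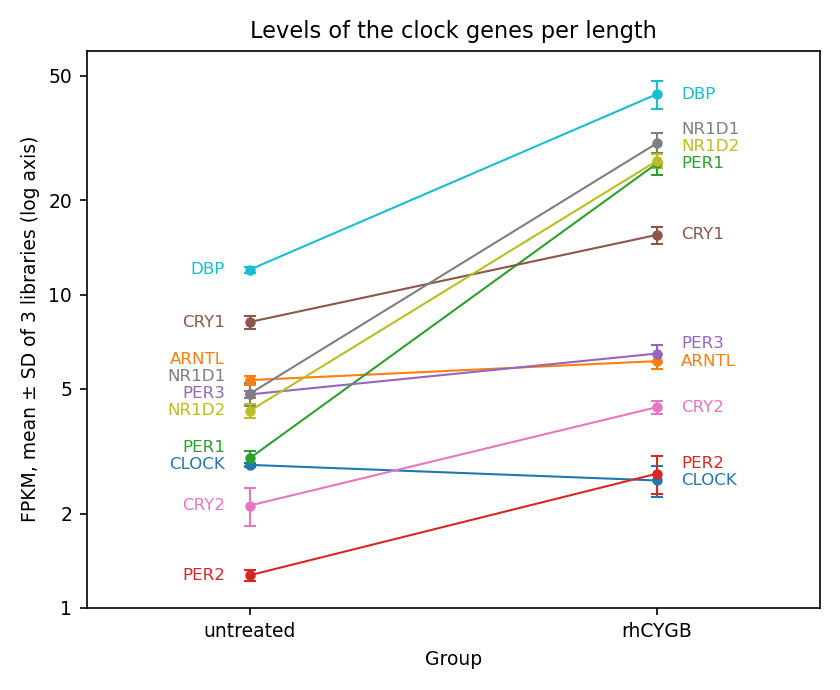
FPKM of each clock gene (log axis, mean ± SD of 3 libraries) in untreated and rhCYGB-treated cells, with a line joining the means of a gene. The lines of PER1, NR1D1 and NR1D2 cross those of CRY1 and ARNTL, and DBP stays the highest at 12.0 and 43.6 FPKM.

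The makeup of the Period transcripts shifted with rhCYGB. Their summed FPKM was 9.07 ± 0.209 in untreated cells and 35.4 ± 2.84 after rhCYGB (SD, n = 3). PER1 made up 32.5%, 34.5% and 32.0% of the sum in the untreated libraries and 74.2%, 73.9% and 74.2% in the rhCYGB libraries. PER3 went from 53.0% ± 1.63 to 18.3% ± 0.551 and PER2 from 14.0% ± 0.346 to 7.56% ± 0.592, so that PER3 was the leading Period transcript before and PER1 after rhCYGB. CRY1, by contrast, made up 79.4% ± 3.02 of the summed cryptochrome FPKM before and 78.0% ± 0.656 after. The summed FPKM of the 5 Period and cryptochrome genes was 2.37 ± 0.0608 times that of CLOCK and ARNTL in untreated cells and 6.37 ± 0.350 times after rhCYGB. The summed FPKM of NR1D1 and NR1D2 was 1.70 ± 0.0624 times that of ARNTL before and 9.33 ± 0.586 times after. These shares and ratios describe RNA and were not tested.

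**Figure D3:**
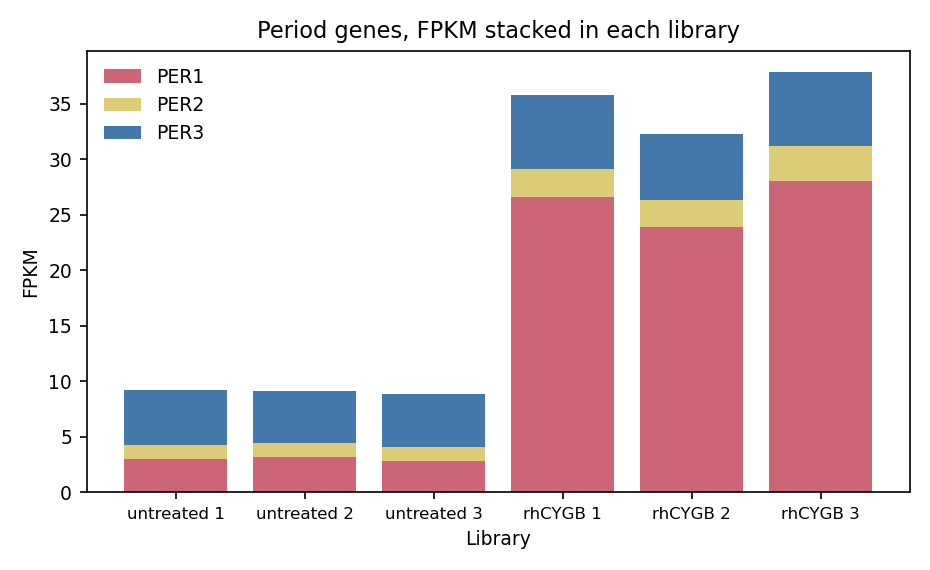
FPKM of PER1, PER2 and PER3 stacked for each of the 6 libraries. The untreated bars reach 8.83 to 9.21 FPKM with PER3 the widest part, and the rhCYGB bars reach 32.3 to 37.9 FPKM with PER1 at 73.9% to 74.2% of each.

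Whether related genes responded alike was tested by the log2 ratio of their counts within each library, which does not depend on the scaling between libraries. Over 7 pairs, a two-sided exact permutation test of 3 against 3 libraries cannot go below p = 0.1, or 0.175 after adjustment here, so none could pass a threshold of 0.05. The PER1/PER2 ratio was 0.79, 0.81 and 0.76 in untreated cells and 2.95, 2.86 and 2.73 after rhCYGB, a difference of 2.06 (exact p = 0.1, adjusted p = 0.175). PER1/PER3 differed by 2.69 and PER2/PER3 by 0.63, with the same p-values and no overlap between the groups. CLOCK fell relative to its paralogue NPAS2, from -0.94 ± 0.0399 to -1.35 ± 0.118 (SD, n = 3, exact p = 0.1, adjusted p = 0.175), again without overlap.

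For the other 3 pairs the groups overlapped. CRY1/CRY2 was 1.48 ± 0.270 before and 1.36 ± 0.0541 after (SD, n = 3, exact p = 0.7, adjusted p = 0.933). NR1D1/NR1D2 was -0.70, -0.85 and -0.88 in untreated cells and -0.89, -0.82 and -0.71 after rhCYGB, with a mean difference of 0.01 (exact p = 1.0). ARNTL/ARNTL2 differed by -0.03 (exact p = 0.8, adjusted p = 0.933). A p of this size in 3 against 3 libraries does not show that the paralogues act alike.

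**Figure D4:**
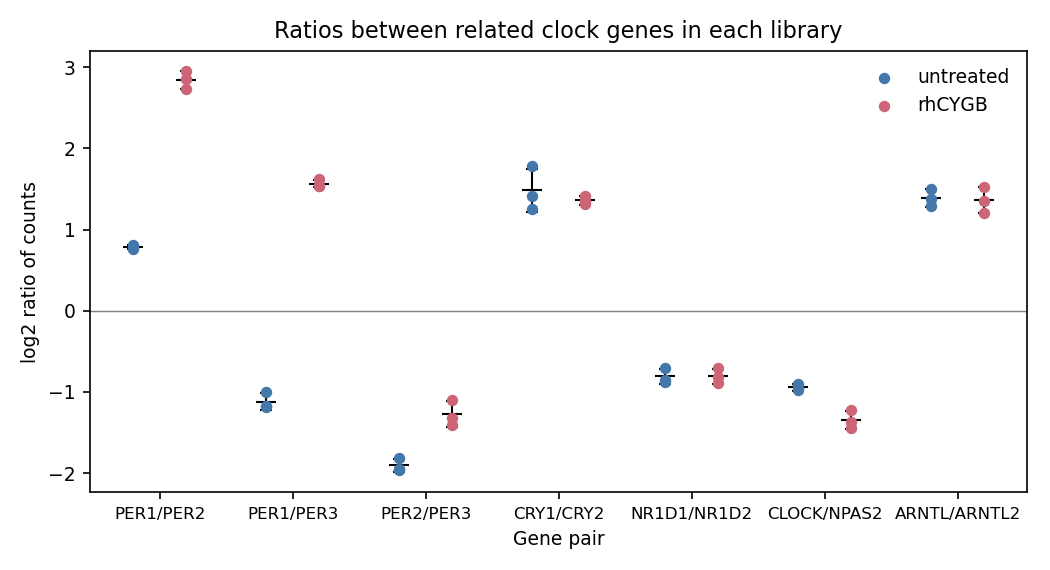
log2 ratio of the counts of 7 pairs of related clock genes in each untreated (blue) and rhCYGB (red) library, with bars for the mean ± SD. The groups are apart for the 3 Period pairs and for CLOCK/NPAS2 and overlap for CRY1/CRY2, NR1D1/NR1D2 and ARNTL/ARNTL2.

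The deposited transcript table listed 51 transcript models for the 10 genes, and the models of each gene summed to its gene count. Of these, 30 passed the filter and 9 rose, with none lower. Of all 32577 transcripts tested, 29.9% passed the same threshold, 15.1% higher and 14.8% lower (adjusted p under 0.05, edgeR). PER1, PER2, CRY1, NR1D1 and DBP had a single model each, which rose with the gene. NR1D2 was carried by variant 1 (5231 bases), with 91.9% ± 5.12 of the gene's counts before and 97.5% ± 1.76 after rhCYGB (SD, n = 3), and this variant rose by 2.82 on the log2 scale (adjusted p = 6.52e-06).

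PER3 had 5 models, of which 2 rose. Variant 1 (6323 bases) carried 88.3% ± 8.46 of the counts before and 81.2% ± 3.27 after and rose by 0.40 (SE 0.0700, adjusted p = 0.00941, edgeR). Variant 5 (6619 bases) had 0, 4 and 1 counts in untreated cells and 100, 64 and 130 after rhCYGB, a log2 fold change of 5.93 (SE 1.14, adjusted p = 0.0129, edgeR) from an untreated level close to 0. Variant 5 passed the filter through its rhCYGB libraries, so only a rise could have been called. It still held 5.44% ± 1.47 of the PER3 counts after rhCYGB. Models of 1 gene share most of their sequence, so the split of reads between them is an estimate.

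CLOCK had 2 models. Variant 2 carried 98.3% ± 1.71 of the counts before and 87.6% ± 16.8 after (SD, n = 3). Variant 1 had 8, 11 and 48 counts in untreated cells and 37, 22 and 422 after rhCYGB, so that rhCYGB library 3 alone gave it 31.8% of the gene's counts, and it did not pass the test (adjusted p = 0.199, edgeR). Variant 1 reached the filter on low counts only with its rhCYGB libraries, so only a rise could have been called. Variant 2 had 1120, 966 and 904 counts after rhCYGB and 1207, 1411 and 1260 before. In this estimated split, the higher CLOCK level of rhCYGB library 3 was placed in variant 1. Whether that reflects the RNA or the assignment of reads between the models was not tested. CRY2 variant 2 had counts in rhCYGB library 3 only (69), and its variant 1 rose by 1.08 (SE 0.135, adjusted p = 0.00263, edgeR). ARNTL was split over 34 models, of which 14 passed the filter and none passed the test, although the gene did.

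In the table, 3 other genes overlapped a clock gene. MIR6883, a microRNA gene inside PER1 on the same strand, had 0 counts in each untreated library and 7, 6 and 5 after rhCYGB, and it was not tested. THRA, which overlaps the end of NR1D1 on the opposite strand over 1075 bases of its span, fell by 0.29 on the log2 scale (adjusted p = 0.00134, edgeR) while NR1D1 rose. SPHK2, which overlaps DBP on the opposite strand over 377 bases, rose by 0.30 (adjusted p = 0.00194, edgeR), less than DBP at 2.03. The library kit keeps the strand, but whether the counting used it is not given in the sources used here.

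Among all tested genes, those with the profile most like PER1 over the 6 libraries were SGTB, CCL22 and TRIB3, by the root mean square distance of log2 CPM values centred on the untreated mean. The distances were 0.0564, 0.0596 and 0.0628, and the log2 fold changes were 3.29, 3.34 and 3.34. CCL22 was a low gene, with 21 to 29 counts in untreated cells and 177 to 232 after rhCYGB.

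Beyond the 10 genes, 49 further genes of the clock pathway were listed by role, and 45 of them passed the filter. Of these 45, 36 rose, 4 fell and 5 did not pass the test, and 14 rose by 2-fold or more, with a median log2 fold change of 0.68. Of all genes tested, 39.0% rose and 12.4% rose by 2-fold or more. No gene of the 45 fell by 2-fold, against 14.7% of all genes. RORB, FBXL21P and PPARGC1A were at 0 in all libraries.

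Both activator paralogues rose by less than 2-fold, NPAS2 by 0.41 (adjusted p = 2.87e-07) and ARNTL2 by 0.39 (adjusted p = 0.00445, edgeR). The ARNTL2 call was lost with upper-quartile factors, with total counts and with limma on log2(FPKM + 1) or log2(FPKM + 0.1), at adjusted p-values of 0.0517, 0.0737, 0.114 and 0.172. The log2 fold change of ARNTL itself was 0.36. RORA encodes a receptor that activates ARNTL at the response elements where the REV-ERB proteins repress it. RORA had 0, 13 and 12 counts in untreated cells and 90, 89 and 106 after rhCYGB, a log2 fold change of 3.70 (SE 0.455, adjusted p = 2.32e-06, edgeR) from a level of 0.195 CPM. Its untreated libraries alone did not reach the filter on low counts, so only a rise could have been called.

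Of the 4 repressors that act at or with the E-box machinery, BHLHE40, also known as DEC1, rose from 34.2 ± 1.21 to 97.4 ± 3.95 CPM (SD, n = 3; log2 fold change 1.51, adjusted p = 3.79e-13, edgeR). Its paralogue BHLHE41 rose by 0.68, and TIMELESS, which also acts at replication forks, fell by 0.23. CIART, a repressor of the heterodimer, had 24, 19 and 16 counts before and 8, 0 and 21 after rhCYGB, with a log2 fold change of -0.85 (SE 0.649, adjusted p = 0.244, edgeR). The rhCYGB libraries of CIART alone did not reach the filter on low counts, so only a fall could have been called. Without rhCYGB library 3 the CIART value was -2.07 with an adjusted p of 0.0216 (edgeR), so that this library decided the call.

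All 3 D-box factors other than DBP rose by 2-fold or more, as did 12.4% of all genes tested. TEF, a relative of DBP, had 23.0 CPM before and 69.8 CPM after rhCYGB (1.60 on the log2 scale, SE 0.0669, adjusted p = 6.95e-12, edgeR). HLF, of the same family, had only 11, 15 and 7 counts before and 53, 62 and 56 after rhCYGB (2.56, SE 0.331, adjusted p = 4.04e-06, edgeR). As for RORA, the untreated libraries of HLF alone did not reach the filter, so only a rise could have been called. NFIL3, the repressor at the same sequences, rose from 6.44 ± 0.738 to 46.8 ± 1.48 CPM (SD, n = 3; 2.86, SE 0.0750, adjusted p = 4.26e-14, edgeR). The D-box activators DBP, TEF and HLF and the repressor NFIL3 thus all rose.

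Of 9 genes for kinases that phosphorylate clock proteins, 8 rose and GSK3B did not pass the test (-0.07). The shares over all genes tested were 39.0% higher, 38.6% lower and 12.4% higher by 2-fold or more. Rises of 2-fold or more were called for PRKAA2, an AMPK catalytic subunit (log2 fold change 1.12), and CSNK2A2, a casein kinase 2 catalytic subunit (1.08). The casein kinase 1 genes CSNK1D and CSNK1E, whose products mark the Period proteins for degradation, rose by 0.55 and 0.74. Of 7 tested genes for ubiquitin ligases and deubiquitinases, 4 rose, BTRC fell by 0.21, and FBXW11 (0.11) and HUWE1 (-0.12) did not pass the test. Called in either direction were 77.6% of all genes tested. USP2, a deubiquitinase of clock proteins, rose by 1.97 from a low level (29, 27 and 45 counts before, 131, 100 and 118 after), and FBXW7, a ligase subunit, rose by 1.16.

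Of 12 tested co-regulators, 10 rose and 2 fell, while 39.0% of all genes tested rose and 38.6% fell. SIRT1, an NAD-dependent deacetylase that acts on clock proteins, rose by 1.56, and CREBBP, an acetyltransferase, by 1.04. HDAC3, the deacetylase recruited by the REV-ERB proteins through NCOR1, fell by 0.63 (adjusted p = 1.27e-09, edgeR), while NCOR1 rose by 0.55. SFPQ, an RNA-binding protein of the Period complex, fell by 0.74, and its partner NONO rose by 0.24. Of 7 output genes, 6 rose and PPARA did not pass the test (-0.09). NOCT rose by 1.60 and NAMPT, an enzyme of NAD synthesis, by 1.33, from 444 ± 8.70 to 1116 ± 7.36 CPM (SD, n = 3).

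The loop was also read by arm. Of 13 genes known to be activated through E-boxes, 8 are clock genes already described. Of the 13, 12 rose, 9 of them by 2-fold or more, and the median log2 fold change of the 13 was 1.24. CIART, for which only a fall could have been called, did not pass the test. Of 5 tested genes known to respond to ROR and REV-ERB receptors (ARNTL, CLOCK, NPAS2, CRY1 and NFIL3), 4 rose, CRY1 and NFIL3 by 2-fold or more, with a median of 0.41. The shares over all genes tested were 39.0% higher and 12.4% higher by 2-fold or more. CRY1 stands in both arms, and the difference between the arms was not tested.

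**Figure D5:**
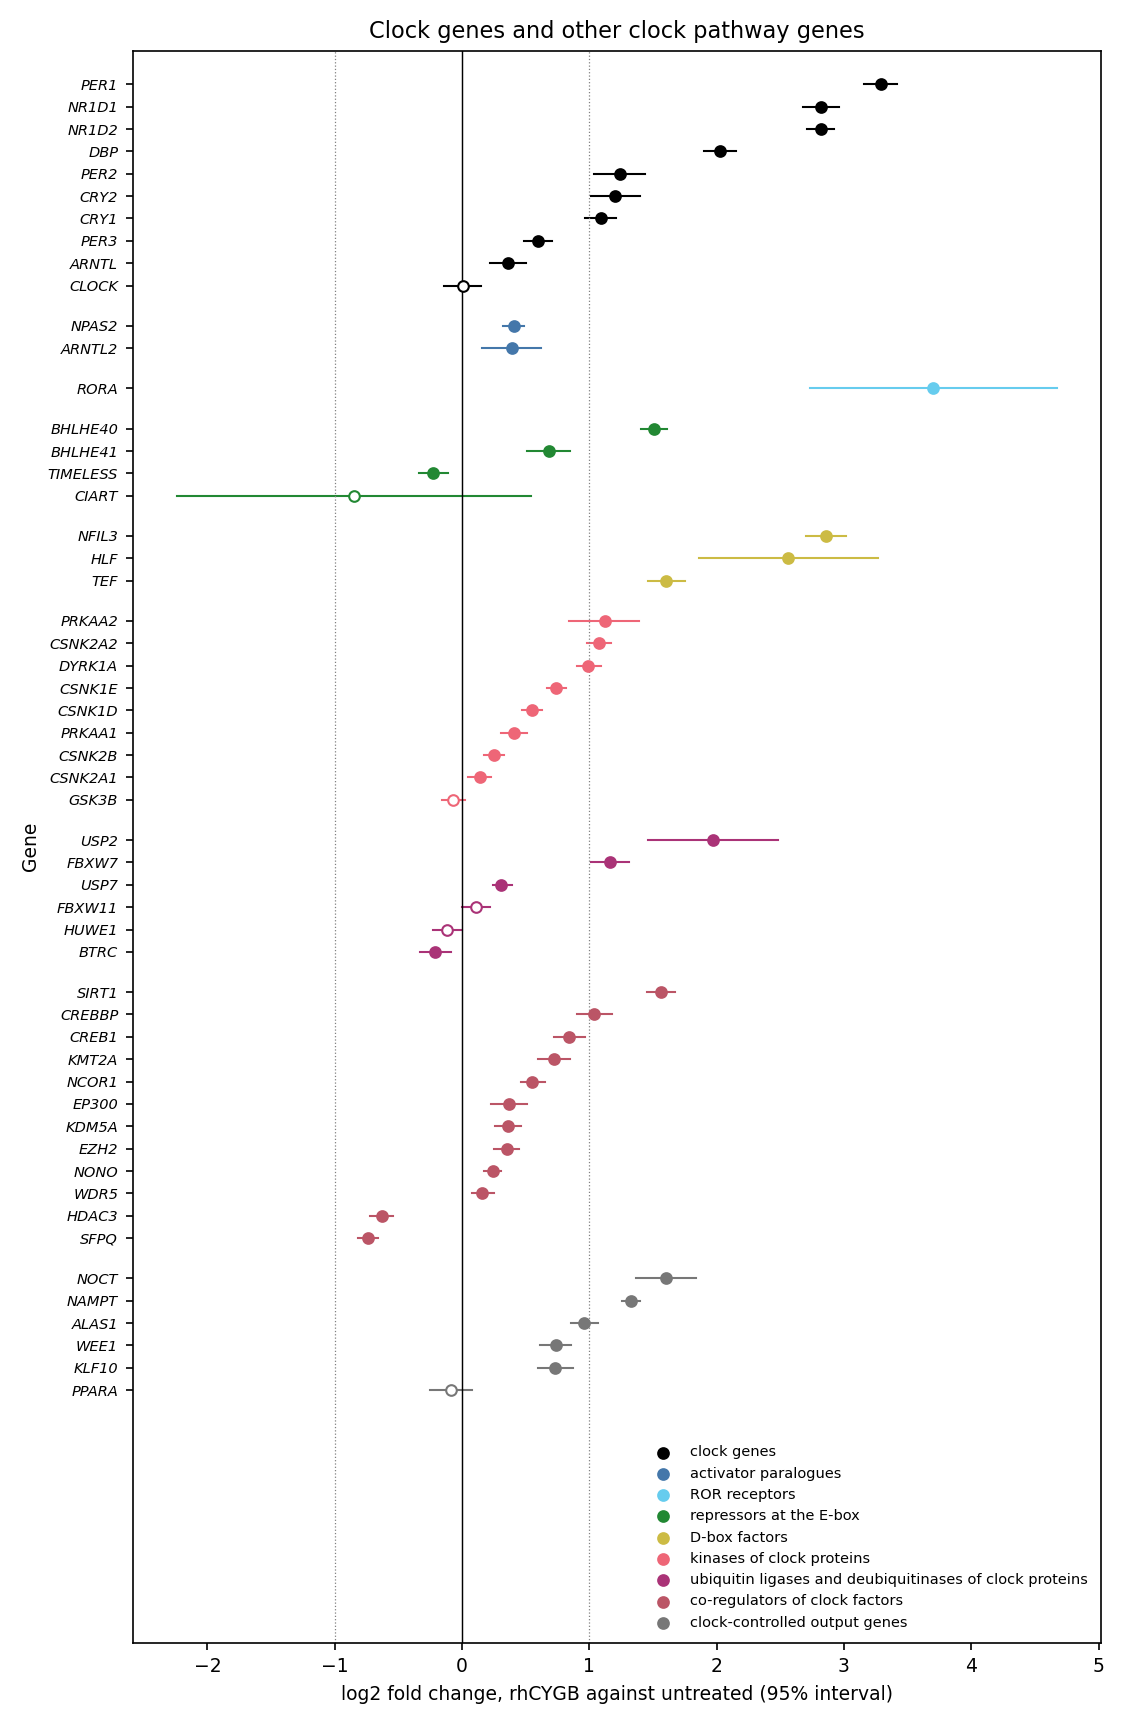
log2 fold change (rhCYGB against untreated) with its 95% interval for the 10 clock genes and other tested pathway genes, grouped by role and not all drawn, with filled points for an adjusted p under 0.05 and dotted lines at a 2-fold change. Most points lie to the right of 0, led by RORA (3.70) and PER1 (3.29), and no filled point lies left of the lower dotted line. RORA and HLF passed the filter on low counts only with their rhCYGB libraries, and CIART only with its untreated libraries.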

How the data were processed

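Poly(A)-selected, strand-marked RNA-seq libraries of 3 untreated and 3 rhCYGB-treated MIA PaCa-2 samples were grouped by their labels. Reads were checked with FastQC 0.11.7, mapped with HISAT2 2.1.0 and assembled with StringTie 2.1.3b, per the submitters' processing notes. The notes list mm10, a mouse build, whereas the files hold human genes, name no build and give positions that are not those of GRCh38. The gene and transcript tables that the authors deposited hold raw, whole-number read counts. FPKM columns, scaled by the authors for length and depth, were deposited beside them, and a set of TPM columns was left unused.

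Counts were tested with edgeR 4.0.16 in R 4.3.3 (filterByExpr, TMM, glmQLFit, glmQLFTest), fitted on all 14728 genes or 32577 transcripts, with Benjamini-Hochberg adjustment. The fits were tested on simulated data. Genes were called at an adjusted p under 0.05, with the 2-fold calls counted separately. Common dispersion gave a coefficient of variation of 5.48%, and floors of 3 counts cover counting error only. No libraries of a group agreed within sampling noise (chi-square over degrees of freedom 4.67 to 6.61). Ratios added 0.5 to each count. The alternatives were other scaling factors, DESeq2 1.42.0, limma 3.58.1 on FPKM, other filters, transcript sums, a replicate block, glmTreat and leaving out each library. Promoter sequences came from RefSeq (GRCh38.p14), and coordinates of the 2 sources were not converted or combined. GENCODE gave strands only.

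The text names every clock gene, in each list the genes called with a 2-fold change (otherwise the largest and smallest log2 fold change), overlapping genes and the 3 genes nearest in profile to PER1, the clock gene with the largest rise. Other pathway genes with a value were named after their values were seen. A few listed genes enter the totals without being reported here. The clock genes, lists and tests were chosen with earlier results of these data known.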

Additional observations from a re-analysis of the deposited data

How the results depend on the processing

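The log2 fold changes of the 9 raised clock genes kept their direction and stayed past the threshold under all 16 alternatives that tested for any change. They ran from 2.77 to 3.34 for PER1, 2.43 to 2.89 for NR1D1, 2.40 to 2.84 for NR1D2, 1.77 to 2.08 for DBP and 0.36 to 0.63 for PER3. With glmTreat, which tests against a 2-fold change, 6 clock genes and 11 other pathway genes were called higher. It called 2673 of all 14728 genes, 48.6% of them higher. CLOCK ranged from -0.17 to 0.06, and with total counts it was reversed at -0.16 (adjusted p = 0.042, edgeR), the 1 clock gene then called lower. Total counts shifted the median of all genes by -0.164, upper-quartile factors by -0.141 and log2(FPKM + 0.1) by -0.147, so changes relative to that shift are smaller. The median over the clock genes was 1.05 with total counts, 1.08 with upper-quartile factors, 0.82 with limma on log2(FPKM + 1), which shrinks low genes by its construction, and 1.01 with log2(FPKM + 0.1), against 1.22. With log2(FPKM + 1), 4 clock genes and 7 other pathway genes rose by 2-fold or more (7 and 14 with edgeR), and 1977 of all genes changed by 2-fold or more (3998 with edgeR). Under upper-quartile factors, total counts and log2(FPKM + 0.1), 6 clock genes rose by 2-fold or more in each case. The other pathway genes that did so were 11, 10 and 10. In the same order, 4081, 4114 and 3609 of all genes changed by 2-fold or more in either direction. The median over the other pathway genes was 0.51, 0.54, 0.32 and 0.51 under these same 4 settings, against 0.68, and 7 of them were called lower with total counts and 7 with upper-quartile factors, against 4. GSK3B, HUWE1 and PPARA were called lower under both scalings (GSK3B -0.23 and -0.21, HUWE1 -0.28 and -0.26, PPARA -0.25 and -0.23), and ARNTL2 missed the threshold there (0.22 and 0.25) and with limma on log2(FPKM + 1) and log2(FPKM + 0.1) (0.10 and 0.20).

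Leaving out 1 library at a time gave 0 to 1 pathway genes lower by 2-fold or more, the 1 being CIART (-2.07) without rhCYGB replicate 3, without which HUWE1 was also called lower (-0.19, adjusted p = 0.00108, edgeR). FBXW11 was called higher without untreated replicate 3 (0.14) and without rhCYGB replicate 2 (0.15). CLOCK transcript variant 2 was the 1 member transcript called lower with total counts (-0.35, adjusted p = 0.0414, edgeR) and likewise 1 with the DESeq2 Wald test (-0.25, adjusted p = 0.0276). The cause of these changes was not tested.

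Replicate numbers are shared by the groups in the labels, but deviations of same-numbered libraries correlated at -0.048, 0.007 and 0.006. Libraries with different numbers correlated at -0.055 to 0.054. These values show no deviation shared by number, but they cannot show whether the samples were paired when they were made. With the replicate block, 9 clock genes were higher, 7 of them by 2-fold or more, with a median of 1.22, and 5 other pathway genes were lower, HUWE1 included (-0.12). The ratio differences under the pairing were 2.06, 2.69, 0.63 and -0.40 for PER1/PER2, PER1/PER3, PER2/PER3 and CLOCK/NPAS2 (exact paired sign test, p = 0.25 each, the smallest it allows).

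Depth limits mainly the low genes: RORA, HLF, USP2 and CIART had under 50 counts in each untreated library. With at least 10 counts required in every library, RORA, HLF and CIART were not tested. The other pathway genes higher by 2-fold or more were then 12, against 14.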
